A study of Drosophila melanogaster with 28 samples.

Results

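The regions described here are the binding regions of the hybrid incompatibility protein HMR that touched an annotated transposable element. They were obtained by joining overlapping peaks (shared by at least 1 bp) from 18 ChIP-seq peak lists and keeping each joined region that overlapped, by at least 1 bp, an element that the Ensembl annotation of the dm6 genome classes as a transposable element. The rule used positions only and no measured strength, and 410 of 12046 regions met it. They are named below by the letter M and a number that follows their order along the genome. A list called a region when it held a peak in it, even a peak that itself missed the element.

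The lists came from SL2 cells, a cultured line of Drosophila melanogaster embryonic origin, that carried a stably integrated, copper-inducible transgene (metallothionein promoter, pMT) for HMR with FLAG and HA tags. Cells of the HMRwt-tg group (construct pMT HMR-FL-FLAG-HA) expressed the full-length protein, and cells of the HMRdC-tg group (construct pMT HMR-dC-FLAG-HA) expressed a protein truncated at its C-terminus. Both groups were induced with 250 µM CuSO4. Both also carried a Myc-tagged Lhr transgene and still held their endogenous HMR. Anti-FLAG, which sees the transgene product, had 5 libraries per construct, and anti-HMR, which sees total HMR, had 4 per construct, each made from a chromatin that was also used for anti-FLAG. Library numbers are names given in deposit order within a group, so that a number is not shared chromatin across antibodies. The sources used here do not say whether the chromatins came from separate cultures or from 1 clone of each line, so every p-value measures only the spread between these libraries. Peak lists hold no expression values, and the identity of the cells could not be checked from markers.

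HMR binds chromatin together with LHR and heterochromatin protein HP1a, and loss of Hmr is known to derepress transposable elements in flies. Drosophila transposable elements are of several kinds: LTR retrotransposons such as gypsy, non-LTR retrotransposons such as jockey, Rt1b and the telomeric HeT-A, DNA transposons with terminal inverted repeats (TIR) such as 1360, and rolling-circle Helitrons, of which the short INE-1 copies are the most common. Most old copies lie in pericentromeric heterochromatin and on the small chromosome 4, where HP1a is abundant. The gypsy element carries an insulator that binds the zinc-finger protein Su(Hw).

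A few regions are shown as sequence, read from the RefSeq assembly of the dm6 genome, because the comparisons below turn on them. M041, the region called in the most lists, is shown over 300 bases on the plus strand (chr2L:22261049-22261348), of which 275 lie in a gypsy8 element. M042 (chr2L:22282548-22282830, plus strand) lies wholly in a gypsy12 element. In both, capitals mark the BEAF-32 motif CGATA on either strand. M368 (chr4:1318125-1318409, plus strand) lies wholly in a telomeric HeT-A element and M207 (chr3L:23258572-23258869, plus strand) wholly in a G5 element, and neither held a searched motif. M400 (chrX:21842946-21843149, plus strand) lies wholly in a gtwin element, and capitals mark the Su(Hw) core TTGCATA, here on the minus strand.
M041: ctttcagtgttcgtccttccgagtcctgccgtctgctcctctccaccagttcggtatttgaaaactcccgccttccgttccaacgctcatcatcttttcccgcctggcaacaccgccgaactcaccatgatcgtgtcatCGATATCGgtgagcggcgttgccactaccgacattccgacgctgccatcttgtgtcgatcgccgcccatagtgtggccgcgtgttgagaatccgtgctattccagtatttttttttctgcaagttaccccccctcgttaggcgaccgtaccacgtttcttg
M042: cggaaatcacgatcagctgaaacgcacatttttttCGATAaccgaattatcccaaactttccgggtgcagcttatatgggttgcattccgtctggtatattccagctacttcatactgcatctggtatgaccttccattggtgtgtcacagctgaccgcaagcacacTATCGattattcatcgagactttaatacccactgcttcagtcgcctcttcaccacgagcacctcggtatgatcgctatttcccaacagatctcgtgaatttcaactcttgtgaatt
M368: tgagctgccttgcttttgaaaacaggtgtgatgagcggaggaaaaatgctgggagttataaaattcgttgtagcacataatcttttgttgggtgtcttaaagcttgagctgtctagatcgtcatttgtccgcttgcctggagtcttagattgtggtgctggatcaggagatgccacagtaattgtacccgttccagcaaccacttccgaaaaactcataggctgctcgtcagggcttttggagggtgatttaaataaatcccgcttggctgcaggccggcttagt
M207: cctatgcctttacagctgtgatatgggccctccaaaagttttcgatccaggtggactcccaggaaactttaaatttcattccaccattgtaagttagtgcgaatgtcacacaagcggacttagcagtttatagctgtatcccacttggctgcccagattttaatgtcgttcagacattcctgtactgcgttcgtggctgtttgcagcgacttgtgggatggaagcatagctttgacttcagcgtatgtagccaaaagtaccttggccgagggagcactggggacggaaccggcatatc
M400: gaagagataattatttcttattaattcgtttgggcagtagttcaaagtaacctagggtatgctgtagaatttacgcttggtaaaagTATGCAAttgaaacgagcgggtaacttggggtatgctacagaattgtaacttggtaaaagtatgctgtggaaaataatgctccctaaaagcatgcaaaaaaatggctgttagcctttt

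The next 4 sequences show how regions over jockey elements sat at the border between the element and unique sequence. Each gives 50 bases outside and 50 bases inside the annotated element, read from the flank into the element, with the element in capitals. Coordinates are those of this window around the element end and not those of the region. M174 itself spans chr3L:19008655-19008910 and M162 spans chr3L:5537606-5537824, so part of the element bases shown lies outside these regions. M163 (chr3L:5538009-5538108, minus strand) and M162 (chr3L:5537733-5537832, plus strand) hold the 5′ and the 3′ end of 1 jockey copy of 276 bp. M174 (chr3L:19008850-19008949, plus strand) and M175 (chr3L:19009119-19009218, minus strand) hold the 5′ and the 3′ end of another copy of 269 bp, in an intron of nkd, a regulator of Wnt signalling.
M163, 5′ end: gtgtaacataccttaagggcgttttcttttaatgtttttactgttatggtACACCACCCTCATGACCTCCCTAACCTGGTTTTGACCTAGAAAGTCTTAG
M174, 5′ end: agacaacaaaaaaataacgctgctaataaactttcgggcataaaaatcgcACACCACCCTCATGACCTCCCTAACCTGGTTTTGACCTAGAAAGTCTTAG
M162, 3′ end: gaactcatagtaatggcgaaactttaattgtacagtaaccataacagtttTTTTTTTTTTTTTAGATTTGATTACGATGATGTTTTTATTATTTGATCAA
M175, 3′ end: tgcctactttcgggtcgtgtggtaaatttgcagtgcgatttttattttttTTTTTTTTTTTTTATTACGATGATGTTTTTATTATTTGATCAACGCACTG

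Between the 5′ ends of these copies, 50 of 50 element bases and 15 of 50 flanking bases were the same at the same place. The 3′ ends start with a run of T, the complement of the poly-A tail, and 22 of 50 element bases were the same at the same place without alignment. Both ends of both copies were called by anti-HMR libraries and by none of the 10 anti-FLAG libraries. A further jockey copy of 355 bp, with M331 and M330 over its 5′ and 3′ ends, did not share this match. M331 had 12 of 50 element and 12 of 50 flanking bases in common with M163, and M330 had 20 of 50 and 20 of 50 with M162, without alignment. M331 was called by 0 and M330 by 1 anti-FLAG library.

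The 410 regions were 200 to 657 bp wide (median 200 bp) and overlapped 437 of 5889 annotated elements from 106 of 155 families. Of them, 330 overlapped 1 element, 67 overlapped 2 and 13 overlapped 3 or more. Contact was often partial. While 178 regions lay wholly in elements, the midpoint of 164 lay outside every element and 32 shared under 20 bp with one. The elements that were hit were longer than those annotated (median 1057 against 373 bp). Under a rule of 1 bp a longer element is touched more readily, so this direction is in part set by the rule.

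By chromosome, 51 regions lay on 2L, 104 on 2R, 124 on 3L, 56 on 3R, 41 on X, 33 on chromosome 4 and 1 on Y. Pericentromeric territories of chromosomes 2 and 3 (2L from 21 Mb, 2R up to 5.6 Mb, 3L from 22 Mb and 3R up to 4.1 Mb) held 194, and the remaining arms held 141. Elements fill 16.1% of the pericentromeric sequence and 3.73% of the arms. Of all regions, those over elements were 14.5% in pericentromeric territories (15.1% of 200 bp windows at uniquely placed sequence touch an element there), 1.57% on the arms (0.900%), 2.61% on X (1.88%) and 19.8% on chromosome 4 (23.4%). Uniquely placed here means that the 50-mers of the sequence, the length of the reads, occur once in the assembly. Reads of low mapping quality, as many from repeats are, were filtered by the authors, and 23.6% of 50-mers inside annotated elements were unique. The filter did not remove every call in repeated sequence, since 3 of the 410 regions held no unique 50-mer.

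Presence across lists was as uneven as for all regions. Of the 410 regions, 246 (60.0%) were called in 1 list, against 60.0% of all 12046 regions, and 50 (12.2%) in at least 10 of 18 lists, against 15.1% of all. Within territories the share called in 1 list differed in both directions. It was 44.0% against 60.2% of the other regions on the arms and 36.6% against 47.5% on X. In pericentromeric territories it was 74.2% against 75.5%, and on chromosome 4 it was 72.7% against 53.7%. On chromosome 4, 9.09% against 31.3% were called in at least 10 lists. A region joined from peaks of several lists can be wider than 1 peak and then touches an element more readily. Shares by number of lists are therefore in part set by the rule of 1 bp. A total of 274 were called by anti-HMR HMRwt-tg library 3, the longest list with 9049 peaks, and 149 of these by it alone. Without that list 259 regions would remain. No anti-FLAG list held 238 of the regions (58.0%, against 61.1% of the other regions), and no anti-HMR list held 60 (14.6% against 8.16%). Each of the 18 lists called more of the regions than it had peaks over elements. It was 21 against 16 in anti-FLAG HMRwt-tg library 2 and 274 against 233 in anti-HMR HMRwt-tg library 3. Counts of calls therefore include peaks beside an element.

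The regions lay away from promoters more often than the rest. Only 48 (11.7%) were within 200 bp of a transcript start, against 33.8% of the other regions, and 54.9% were intergenic against 22.6%. Exons held 17.1% of them against 48.0%, whereas introns held 28.0% against 29.4%. Under 50% unique 50-mers were found in 37 (9.02%) of them and in 0.902% of the others. These shares describe the regions, which are not replicates, and were not tested.

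Of the 50 regions called in at least 10 lists, 19 lay within 200 bp of a transcript start, 14 lay wholly in elements, and 29 had under 100 bp in an element. M041 (chr2L:22260977-22261421, 348 of 445 bp in gypsy8) was the 1 region called in all 18 lists. M333 over a jockey end on 3R (30 of 275 bp), M124 over Circe, an LTR element, on 2R (93 of 254 bp) and M368 over HeT-A were each called in 4 of 5 HMRwt-tg and 5 of 5 HMRdC-tg anti-FLAG lists and in all 8 anti-HMR lists. M328 (112 of 301 bp in an S element, at the 5′ UTR of CG33494) was called in 5 and 4 anti-FLAG lists and in all 8 anti-HMR lists. M269 on 3L lay in an R1 element, a non-LTR retrotransposon of ribosomal DNA, and was called in 17 lists. On chromosome 4, M350 covered 36 bp of an INE-1 copy at the 5′ UTR of Gyf, a translational repressor, and on X, M375 covered 46 bp of INE-1 at the 5′ UTR of rtv, a gene needed for cuticle formation. Both were called in all 10 anti-FLAG lists and in 7 of 8 anti-HMR lists. The single region on Y, M410 over an opus element, was called in 1 anti-HMR list.

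**Figure D1:**
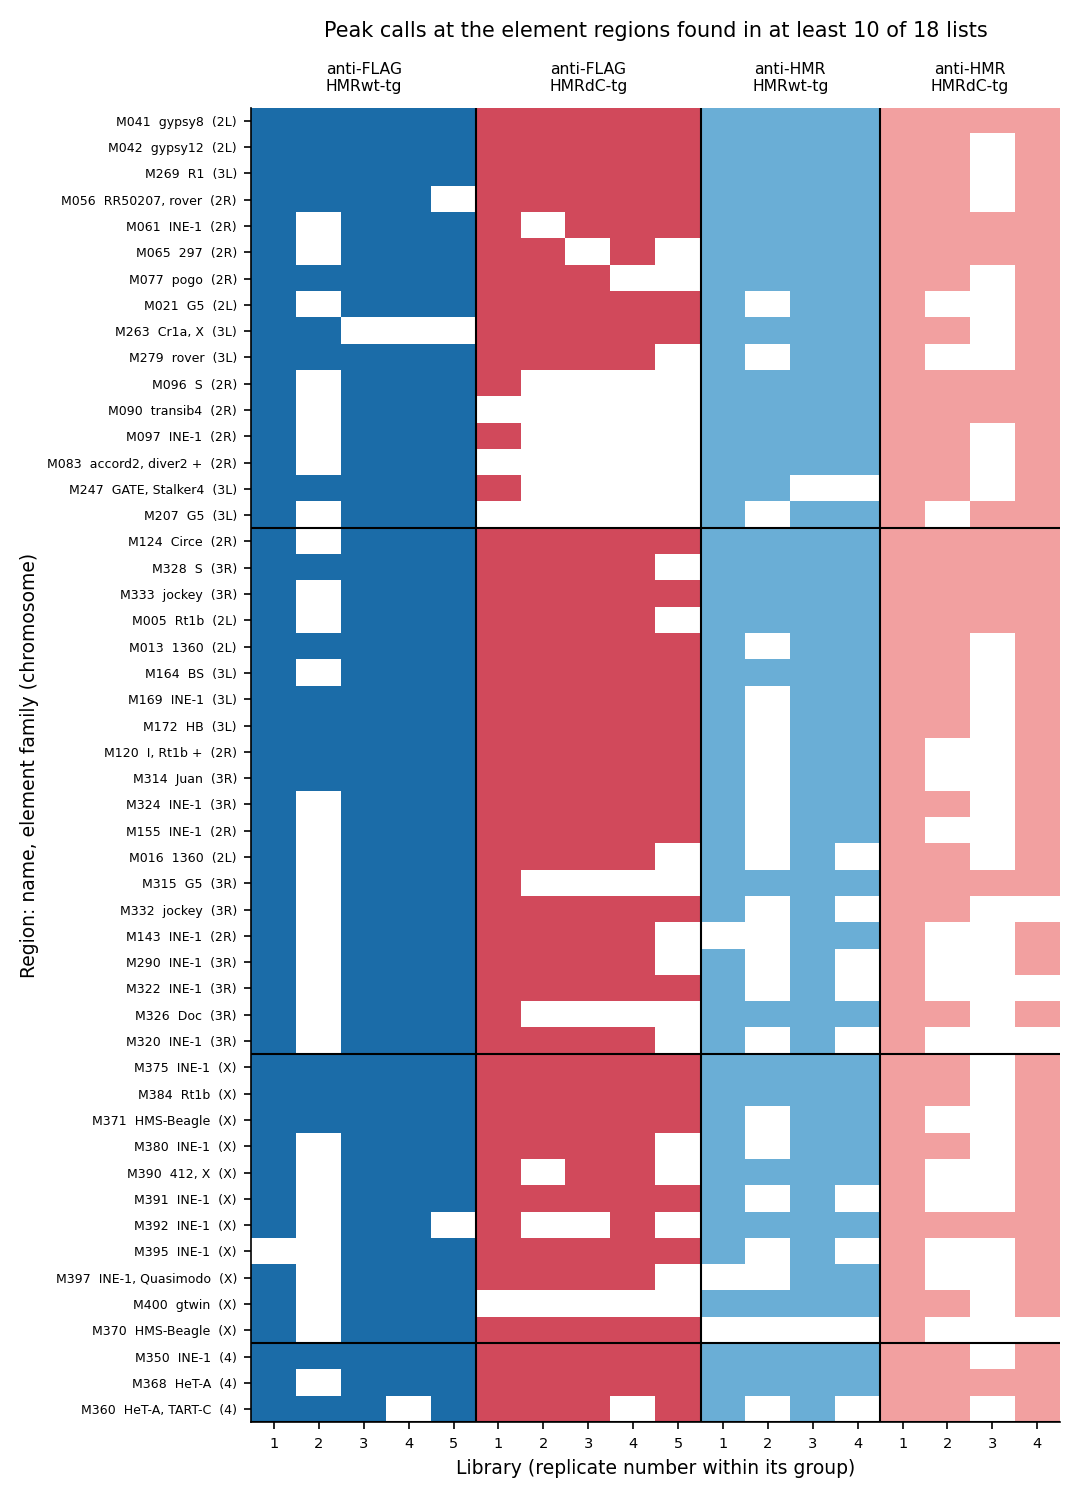
Peak calls at the 50 regions over elements that were found in at least 10 of 18 lists (rows, with element family and chromosome; the blocks from top to bottom are pericentromeric, arms, X and chromosome 4) in each library (columns, by antibody and construct); a filled cell is a call and a white cell is none. M041 is filled throughout, the 465-peak list of anti-FLAG HMRwt-tg library 2 is white in many rows, and M083, M090, M207 and M400 are white in all 5 anti-FLAG HMRdC-tg libraries while filled in anti-HMR libraries of both constructs. The peak behind a call need not touch the element.

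The first question of the design was whether the C-terminus of HMR matters for the share of binding over elements. The share was the number of peaks that overlapped an element as a percentage of the peaks of that list, because list length ranged from 465 to 9049 peaks. In anti-FLAG libraries 1 to 5 it was 2.55, 3.44, 2.40, 2.82 and 2.09% for HMRwt-tg and 1.65, 1.68, 1.64, 1.26 and 1.92% for HMRdC-tg. Every HMRwt-tg library lay above every HMRdC-tg library. The mean was 2.66% ± 0.509 (SD, n = 5) against 1.63% ± 0.238 (SD, n = 5), a difference of -1.03 percentage points (exact two-sided permutation test over libraries, p = 0.00794, the smallest that 5 against 5 can give).

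With anti-HMR, libraries 1 to 4 gave 2.69, 3.57, 2.57 and 2.27% for HMRwt-tg and 2.07, 2.50, 2.60 and 2.47% for HMRdC-tg. The groups overlapped, and the means of 2.78% ± 0.555 (SD, n = 4) and 2.41% ± 0.233 (SD, n = 4) differed by -0.365 percentage points (exact two-sided permutation test, p = 0.343). The shares rest on few peaks. The 465-peak list of anti-FLAG HMRwt-tg library 2 held 16 peaks over elements, and its 95% Wilson interval ran from 2.13 to 5.52%, while that of anti-HMR HMRwt-tg library 3, with 233 peaks over elements, ran from 2.27 to 2.92%. These intervals cover counting error only, and the depth in reads is unknown.

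**Figure D2:**
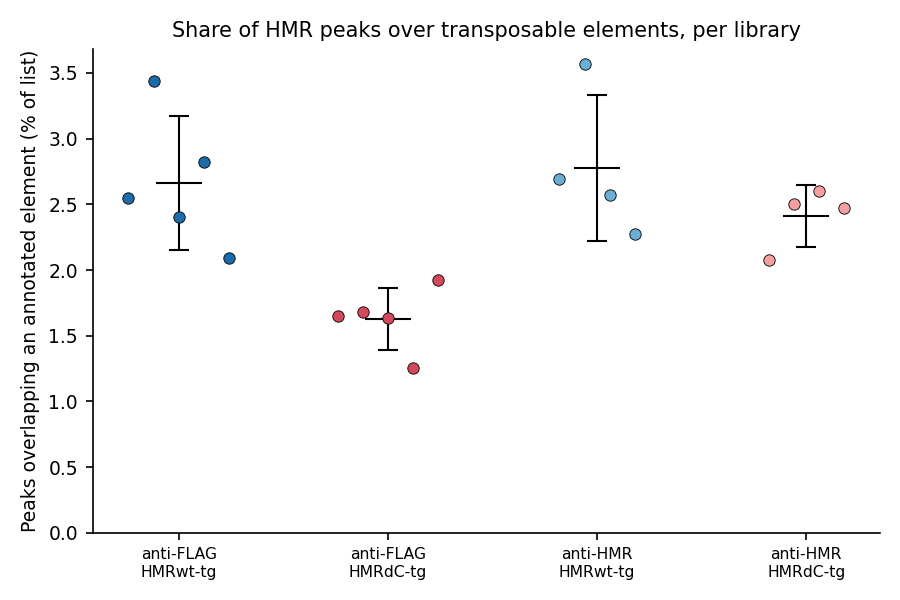
Percentage of the peaks of each list that overlapped an annotated transposable element (y axis), by antibody and construct (x axis); points are libraries and bars are the mean and SD. All 5 anti-FLAG HMRwt-tg libraries (2.09 to 3.44%) sit above all 5 HMRdC-tg libraries (1.26 to 1.92%), whereas the anti-HMR groups overlap.

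Since each anti-HMR library has an anti-FLAG partner from 1 chromatin, the antibodies could be compared within a chromatin. The share over elements with anti-FLAG minus that with anti-HMR was -0.145, -0.124, 0.249 and 0.129 percentage points in the HMRwt-tg chromatins and -0.426, -0.818, -1.35 and -0.832 in the HMRdC-tg chromatins. Anti-HMR was higher in all 4 HMRdC-tg chromatins and in 2 of 4 HMRwt-tg chromatins. The mean was 0.0269 (exact two-sided sign-flip permutation over chromatins, p = 0.875) and -0.856 (exact, p = 0.125, the smallest that 4 pairs can give). The difference between the constructs was -0.883 percentage points (exact two-sided permutation test of 4 against 4, p = 0.0286, the smallest possible). With regions in place of peaks as the unit it was -0.935 (exact permutation test, p = 0.0857), and in the first 50% of the lines of each list it was -0.161 (exact permutation test, p = 0.83).

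By territory, the anti-FLAG difference passed the test in the pericentromeric territories only. Pericentromeric peaks over an element were 1.32, 1.51, 1.10, 1.20 and 0.869% of the list in HMRwt-tg libraries 1 to 5 and 0.517, 0.504, 0.475, 0.305 and 0.732% in HMRdC-tg. The groups did not overlap (1.20% ± 0.238 against 0.507% ± 0.152, SD, n = 5 each; by exact permutation, two-sided, p = 0.00794, adjusted p = 0.0318 over 4 territories by Benjamini-Hochberg). With the midpoint of a peak required inside an element the difference was -0.536 (adjusted p = 0.0635), without the 2 anti-FLAG libraries prepared with the NEBNext kit (library 5 of each construct) it was -0.829 (adjusted p = 0.114, 4 against 4), and with HMRdC-tg library 1, 2, 3 or 4 left out it ran from -0.693 to -0.640 (adjusted p = 0.0635 in each, exact permutation tests). Peaks off elements fell in the same territories as well, from 7.70% ± 1.37 to 3.09% ± 0.724 of the list (SD, n = 5 each; exact permutation test, p = 0.00794). Among pericentromeric peaks, the percentage over an element was 13.5% ± 1.88 in HMRwt-tg and 14.7% ± 6.13 in HMRdC-tg (SD, n = 5 each; exact permutation test, p = 0.722), which is within the spread between libraries. Whether elements or the territory that holds them carried the difference cannot be told apart from position alone.

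**Figure D3:**
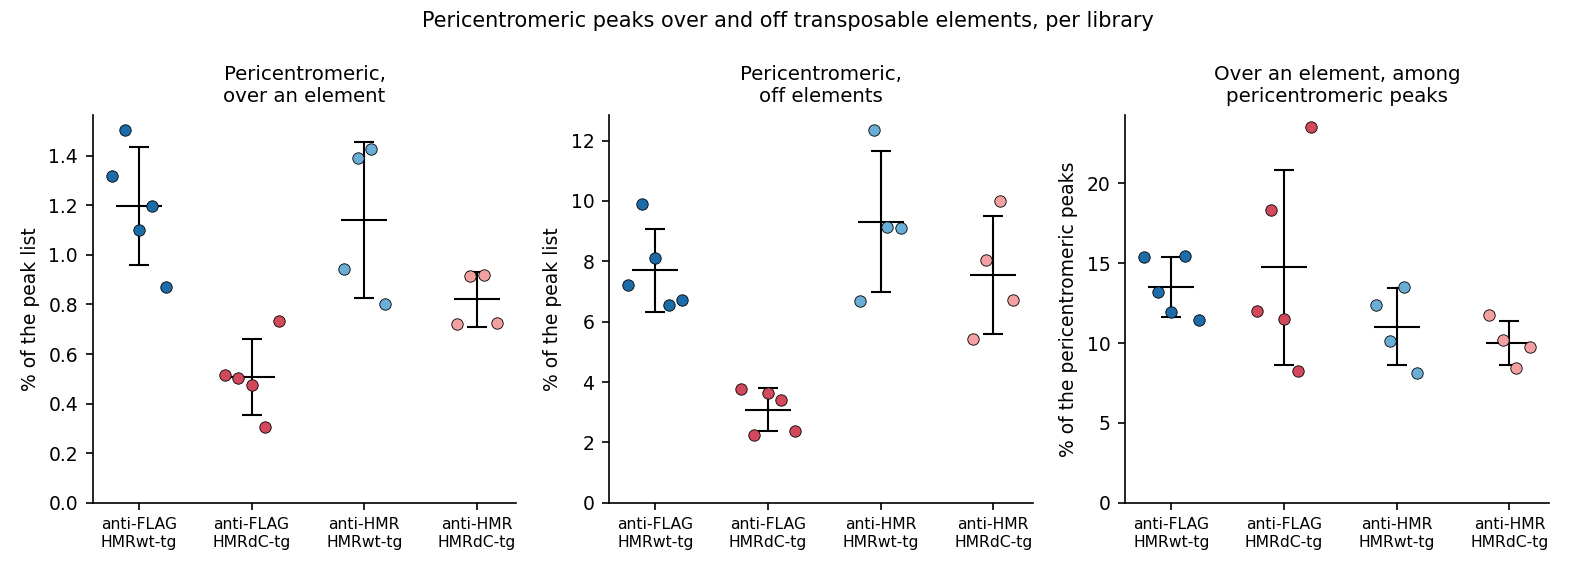
Pericentromeric peaks of each anti-FLAG and anti-HMR library over elements and off elements, as a percentage of the list, and the percentage of pericentromeric peaks that lay over an element; points are libraries and bars are the mean and SD. With anti-FLAG both classes of peaks were lower in HMRdC-tg (1.20 to 0.507% over elements, 7.70 to 3.09% off elements), while the percentage over an element among them overlapped between constructs.

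On the arms the anti-FLAG share over elements was 0.912% ± 0.246 of the list in HMRwt-tg and 0.666% ± 0.102 in HMRdC-tg (SD, n = 5 each; exact permutation test, p = 0.0556, adjusted p = 0.111), and the difference of -0.246 passed when regions were counted in place of peaks (-0.216, adjusted p = 0.0318) or when the borders were moved by 1 Mb toward the centromeres (-0.506, adjusted p = 0.0318, exact permutation tests). Among anti-FLAG peaks on the arms, the percentage over an element was 1.34% ± 0.453 in HMRwt-tg and 0.890% ± 0.126 in HMRdC-tg (SD, n = 5 each). This difference did not pass after adjustment (exact permutation test, p = 0.0238, adjusted p = 0.0952). Peaks over elements on X were 0.323% and 0.327% of the list (p = 0.929, exact permutation test), and on chromosome 4 they were 0.229% and 0.130% (p = 0.19, exact permutation test). With anti-HMR, pericentromeric peaks over elements were 0.945, 1.39, 1.43 and 0.802% in HMRwt-tg and 0.722, 0.915, 0.919 and 0.726% in HMRdC-tg. These groups overlapped (1.14% ± 0.315 against 0.821% ± 0.111, SD, n = 4 each; exact permutation test, p = 0.114, adjusted p = 0.457).

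Region by region, 21 of the 410 regions (5.12%) were called in at least 4 of 5 HMRwt-tg and at most 1 of 5 HMRdC-tg anti-FLAG libraries, against 1.44% of all regions, and the reverse pattern was met by 0 of them, against 0.083% of all. Of 62 regions called in at least 4 HMRwt-tg libraries, 21 (33.9%) were called in at most 1 HMRdC-tg library, against 8.87% of all such regions, and 35 (56.5%) in at least 4, against 74.4%. Position moved with this. Of the 21 regions 16 were pericentromeric, 3 lay on the arms, 2 on X and 0 on chromosome 4. Of the regions called in at least 4 HMRwt-tg libraries, 16 of 25 (64.0%) pericentromeric ones over elements and 60 of 130 (46.2%) pericentromeric ones off elements met the rule, and on the arms 3 of 24 (12.5%) and 62 of 1372 (4.52%). No region passed Fisher's exact test after adjustment over all 12046 regions (0.0%). The smallest p that this test can give with 5 against 5 libraries is 0.00794. With so many regions adjusted for, a few regions could not pass, so this outcome says nothing about single regions. At an unadjusted p under 0.05, 13 of the regions over elements were higher in HMRwt-tg, against 0.656% of all regions, and 0 were higher in HMRdC-tg, against 0.0% of all. With the 465-peak anti-FLAG list left out, 35 regions met the rule at least 3 of 4 against at most 1 of 5.

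The 21 regions were called by anti-HMR in a mixed way: 13 had a peak in at least 1 anti-HMR HMRdC-tg list, and 8 (38.1%) were called in at least 3 of 4 anti-HMR lists of each construct. Of 152 regions off elements that met the same anti-FLAG rule, 47 (30.9%) were called in this last way. Among pericentromeric ones it was 5 of 16 (31.2%) over elements and 29 of 60 (48.3%) off elements. On the arms it was 2 of 3 and 7 of 62. These shares were not tested. Of the 21, 12 had no HMRdC-tg anti-FLAG list, 6 lay wholly in elements, and 3 had under 20 bp in an element. M207, shown above, lies in an intron of nAChRalpha4, a subunit of the nicotinic acetylcholine receptor, and was called in 4 HMRwt-tg and 0 HMRdC-tg anti-FLAG lists and in 3 anti-HMR lists of each construct. M205, over a 297 and an X element of the same gene (chr3L:23219725-23219955), was called in 4 and 0 anti-FLAG lists and in 2 and 0 anti-HMR lists (Fisher's exact test on anti-FLAG, p = 0.0476, adjusted p = 1.0). M400 over gtwin was called in 4 and 0 anti-FLAG lists and in 4 and 3 anti-HMR lists, although only 3.23% of its 50-mers are unique. M083, over accord2, diver2 and gypsy on 2R, had the same calls.

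M094 was called in 4 and 0 anti-FLAG lists with 21 bp of a hopper element in an intron of Nipped-A, a subunit of histone acetyltransferase complexes. M063 was called in 4 and 0 lists with 300 bp of INE-1 in an exon of Nipped-B, the cohesin loader. M209, over INE-1 and also in nAChRalpha4, was called in 4 and 0 anti-FLAG lists and in 1 and 0 anti-HMR lists. This region and the next were named after their values were seen. M247 lay in an intron of AGO3, a PIWI protein of the piRNA pathway (5 and 1 anti-FLAG lists, 2 and 3 anti-HMR lists, over Stalker4 and GATE). M374 lay at the 5′ UTR of sov, a zinc-finger protein of heterochromatin (4 and 1 anti-FLAG lists, 2 and 0 anti-HMR lists, with 33 bp of transib4). M247 was the 1 region of the 21 that all 5 HMRwt-tg anti-FLAG libraries called.

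In the other direction differences were small. M263 (chr3L:23807645-23807853), over an X and a Cr1a element, was called in 2 HMRwt-tg and 5 HMRdC-tg anti-FLAG lists (Fisher's exact test, p = 0.167) and in 4 and 3 anti-HMR lists. M395, over INE-1 on X, was called in 3 and 5 anti-FLAG lists, M370, at the 5′ UTR of the translation initiation factor gene eIF3g1 with 55 bp of HMS-Beagle, in 4 and 5, M396 over G5A in 2 and 3, and M335 over Doc in 0 and 1. None of these separated the constructs.

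By anti-HMR, 3 of the 410 regions were called in at least 3 of 4 HMRwt-tg and at most 1 of 4 HMRdC-tg libraries, against 0.548% of all regions. They were M175 over jockey, M270 over gypsy in an intron of lovit, a histamine transporter gene, and M310 over transib2, and they were named after their values were seen. The reverse was met by 1 region, M238 over an S element in AGO3, against 0.266% of all regions. M238 was called in 3 and 1 anti-FLAG lists, the opposite direction. The count of 3 rested on single libraries: it was 20 without HMRwt-tg library 2 or without library 4, and 13, 7 and 11 without HMRdC-tg libraries 1, 2 and 4, with the rule then asking for all or all but 1 of the remaining libraries. Likewise the count of 1 was 4 without HMRwt-tg library 1, 2 without library 2, 3 without library 3, and 2, 4 and 5 without HMRdC-tg libraries 2, 3 and 4.

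The classes of elements were compared next. With anti-FLAG, peaks over LTR elements (125 regions) were 0.892, 1.29, 0.651, 0.971 and 0.711% of the list in HMRwt-tg libraries 1 to 5 and 0.452, 0.448, 0.475, 0.419 and 0.640% in HMRdC-tg. Peaks over non-LTR elements (157 regions) were 0.977, 1.29, 1.02, 0.994 and 0.790% and 0.646, 0.729, 0.528, 0.381 and 0.732%. In both classes every HMRwt-tg library was above every HMRdC-tg library (exact two-sided permutation test, p = 0.00794 and adjusted p = 0.0159 over 4 classes for each). Means were 0.903% ± 0.253 against 0.487% ± 0.088 for LTR and 1.01% ± 0.179 against 0.603% ± 0.149 for non-LTR elements (SD, n = 5 each).

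Peaks over TIR elements (71 regions) were 0.425, 0.430, 0.366, 0.474 and 0.158% in HMRwt-tg and 0.194, 0.112, 0.211, 0.0762 and 0.0915% in HMRdC-tg. The groups overlapped through HMRwt-tg library 5, and means of 0.371% ± 0.125 and 0.137% ± 0.0615 (SD, n = 5 each) differed (exact permutation test, p = 0.0238, adjusted p = 0.0238). The INE-1 Helitrons (100 regions) were 0.627% ± 0.0473 against 0.534% ± 0.042 of the list (SD, n = 5 each; exact permutation test, adjusted p = 0.0238), the smallest difference of the 4 classes. It lost its call in 9 of 23 alternative settings, and the TIR difference in 5. In the first 50% of the lines of each list the difference was -0.169 for LTR (adjusted p = 0.349) and -0.211 for non-LTR elements (adjusted p = 0.159, exact permutation tests). With anti-HMR the adjusted p was 0.171 for LTR and for non-LTR elements, 0.857 for TIR and 0.8 for INE-1 (exact permutation tests, n = 4 each). Classes share chromatin and territory with each other, and a region over elements of 2 classes counted in both.

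Of single families, 9 were overlapped by at least 10 regions. INE-1 had 100 regions over 102 of 2235 annotated copies (4.56%), and 1360 had 33 over 29 of 493 copies (5.88%). Larger shares of copies were hit in Cr1a (23 of 152, 15.1%), gypsy12 (9 of 51, 17.6%), HeT-A (5 of 27, 18.5%), Rt1b (12 of 60, 20.0%), jockey (20 of 96, 20.8%) and the X element (13 of 58, 22.4%), a non-LTR family that shares its letter with the chromosome. Families differ in the length of their copies (median 146 bp in INE-1, 522 bp in jockey and 1075 bp in 1360), and a longer copy is touched more readily. They also differ in how much of their sequence can be mapped: 89.2% of the 50-mers inside INE-1 copies were unique, 84.2% in gypsy8, 40.4% in Rt1b, 19.4% in HeT-A and 11.4% in jockey. The HeT-A regions all lay on chromosome 4 and the 10 gypsy8 regions were all pericentromeric.

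No family separated the constructs after adjustment over the 9 families. The lowest p was that of Cr1a, a non-LTR family, with anti-FLAG shares of 0.127, 0.215, 0.122, 0.158 and 0.118% in HMRwt-tg and 0.0969, 0.112, 0.0528, 0.0381 and 0.0915% in HMRdC-tg. The groups did not overlap, but these shares stand for 1 to 7 peaks a list (0.148% ± 0.0405 against 0.0783% ± 0.0313, SD, n = 5 each; exact permutation test, p = 0.00794, adjusted p = 0.0714). Among the 100 INE-1 regions, 16 were called in at least 10 lists and 12 of those lay within 200 bp of a transcript start, with a median of 89 bp in elements over all 100.

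**Figure D4:**
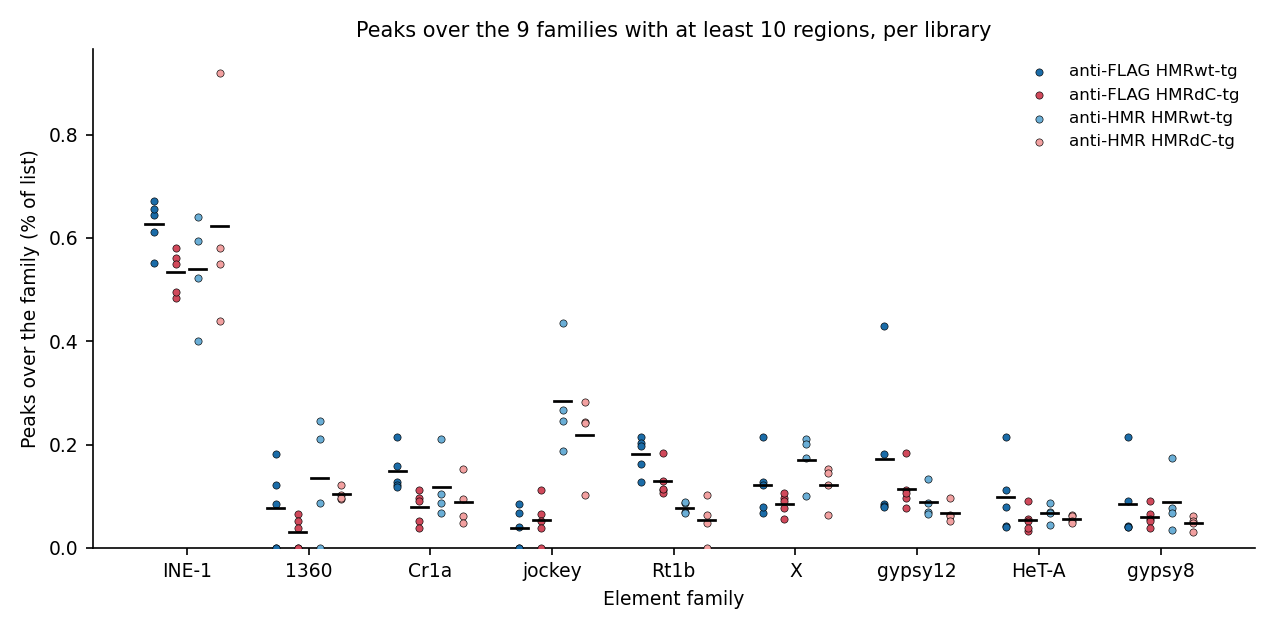
Peaks over each family with at least 10 regions as a percentage of the list, by library, for anti-FLAG and anti-HMR and both constructs; points are libraries and short bars are means. The jockey family is higher with anti-HMR (0.102 to 0.435%) than with anti-FLAG in every shared chromatin, and Rt1b is higher with anti-FLAG (0.106 to 0.215%).

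Between the antibodies, 2 families differed in each of the 8 shared chromatins. This comparison by family was added after the lists were seen. Peaks over jockey elements numbered 2, 0, 1, 3 and 0 in anti-FLAG HMRwt-tg libraries 1 to 5 and 2, 2, 1, 1 and 0 in HMRdC-tg. With anti-HMR they numbered 7, 5, 17 and 4 in HMRwt-tg and 9, 4, 2 and 5 in HMRdC-tg. As a percentage of the list, jockey was higher with anti-HMR in 8 of 8 chromatins, with means of 0.0576% and 0.251% and a paired difference of -0.193 percentage points ± 0.112 (SD over chromatins; exact two-sided sign-flip permutation, p = 0.00781, adjusted p = 0.0352 over 9 families). When a peak counted only with its midpoint or at least 100 bp inside an element, the difference was -0.0331 in each setting (exact permutation, p = 0.125). The midpoint of the joined region lay outside the element in 21 of the 26 jockey regions, and the places of single peaks are not given here.

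Rt1b went the other way. Peaks over it numbered 3, 1, 4, 9 and 5 in anti-FLAG HMRwt-tg libraries and 4, 2, 2, 3 and 2 in HMRdC-tg, and with anti-HMR 2, 1, 8 and 1 and 2, 0, 2 and 1. As a percentage of the list it was higher with anti-FLAG in 8 of 8 chromatins, by 0.0805 percentage points ± 0.0390 (SD over chromatins; exact sign-flip permutation, p = 0.00781, adjusted p = 0.0352). In the first 50% of the lines of each list it was 0.0480 (exact permutation, p = 0.0781), and with lists cut to the shortest of each antibody 0.0372 (exact permutation, p = 0.25). The other 7 families did not pass the threshold (adjusted p from 0.229 to 0.930).

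The jockey regions were examined singly. All 26 were called by at least 1 anti-HMR HMRwt-tg list, 18 by at least 1 anti-HMR HMRdC-tg list, and 21 by no anti-FLAG list. Of all 410 regions, the same held for 308, 155 and 238 (58.0%). No anti-FLAG list held 61.1% of the regions off elements. Of the 26, 8 were called in 1 list only, an anti-HMR HMRwt-tg list, so that these could have no anti-FLAG call. Of the 26, 23 lay over an end of the element, 14 over the 5′ end and 10 over the 3′ end. The midpoint was outside the element in 21 and within 250 bp of its nearest end in 20 of these, and of the 5 midpoints inside, 3 lay more than 2 kb from an end. Only 11.4% of the 50-mers inside jockey copies can be placed uniquely, and its part in the position of these calls was not tested.

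A region over each end of the same copy was found for 12 elements, of which 6 were jockey. The 5′ and 3′ regions of these 6 were M148 and M147, M152 and M153, M163 and M162, M174 and M175, M331 and M330, and M332 and M333. The last pair differed from the others: M332 and M333 were each called in 9 of 10 anti-FLAG lists and in 4 and 8 anti-HMR lists. Part of these calls were peaks that missed the jockey element. All 5 anti-FLAG HMRdC-tg lists called both regions, but library 5 held 0 peaks over jockey and libraries 3 and 4 held 1 each. In the other 5 pairs, 1 region was called by 1 anti-FLAG list and the rest by none, while anti-HMR calls ran from 2 to 7 of 8.

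**Figure D5:**
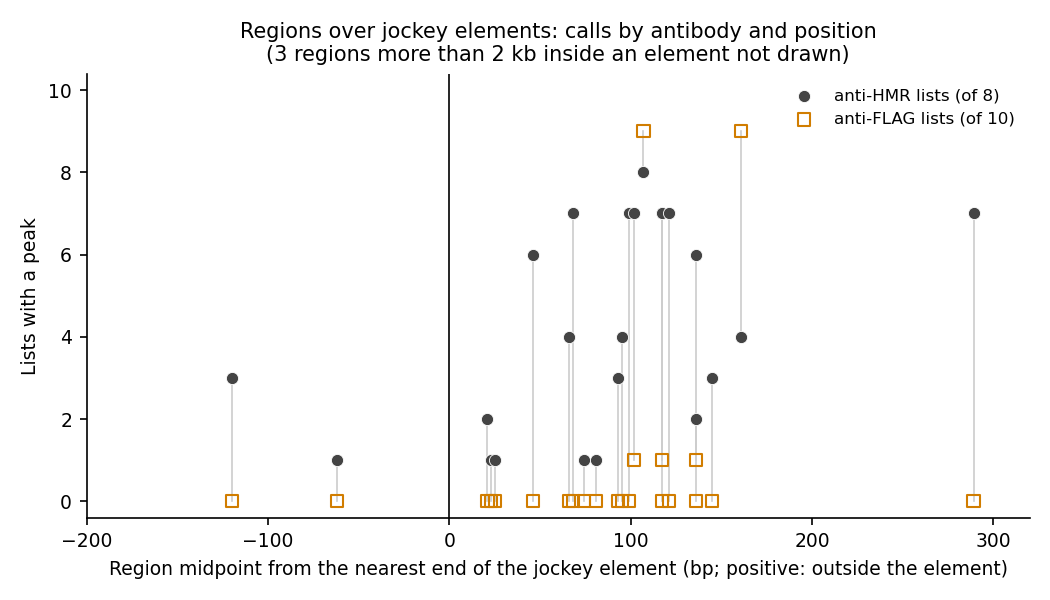
Position of each jockey region's midpoint relative to the nearest end of its element (x axis, bp; positive values are outside the element) against the number of lists that called it, for anti-HMR and anti-FLAG; 3 regions deeper than 2 kb inside are not drawn. Most regions sit outside the element within 250 bp, with calls from anti-HMR lists and none from anti-FLAG lists.

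Being called by anti-HMR alone was not limited to jockey. With a rule added after the lists were seen, 21 of the 410 regions (5.12%) were called in at least 6 of 8 anti-HMR and at most 1 of 10 anti-FLAG lists, against 2.6% of all regions, and 9 of the 26 jockey regions (34.6%) met it. The reverse, at least 6 of 10 anti-FLAG and at most 1 of 8 anti-HMR lists, was met by 1 region (0.244%), against 1.13% of all. None of these 21 was pericentromeric or on chromosome 4. The territories of the 313 regions of any kind that met the rule were not counted. It is therefore not known whether this absence is particular to regions over elements. By class, 16 of the 21 lay over non-LTR elements, 2 over TIR elements, 2 over INE-1 and 1 over an LTR element, against 157, 71, 100 and 125 of all 410 regions, with no test of the difference. Besides jockey they included M011 and M300 over X elements and M305 over jockey2, each called in all 8 anti-HMR lists and in no anti-FLAG list, M299 and M316 over BS, and M136 over G5, which are non-LTR families, as well as M323 over opus, an LTR element, and M312 and M369 over INE-1. Those named here were chosen after their values were seen.

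Over gypsy and the telomeric elements, few regions were called often. The 7 gypsy regions were M083 (4 and 0 anti-FLAG lists, 4 and 3 anti-HMR lists), M068 (3 and 0, 1 and 0), M401 (2 and 0, 1 and 1), M270 (1 and 0, 4 and 1), M302 (0 and 0, 3 and 2), and M210 and M262, each called in 1 anti-HMR HMRwt-tg list. None of M401's 50-mers is unique (0.0%). Among the 10 telomeric regions on chromosome 4, M368 was called in 17 lists and M360, over TART-C and HeT-A, in 13 (4 and 4 anti-FLAG, 2 and 3 anti-HMR lists) with 11.1% unique 50-mers. M363 and M365 were each called in 2 HMRwt-tg anti-FLAG lists, and the other 6 in 1 list.

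The most often called regions of the remaining large families were M013 over 1360 (8 of 260 bp, called in 10 anti-FLAG and 6 anti-HMR lists), M384 over Rt1b on chromosome X (11 of 321 bp, 17 lists) and M042 over gypsy12 (283 of 283 bp, 17 lists). Anti-FLAG libraries 2 and 5 of each construct and anti-HMR HMRwt-tg library 4 called M013 but held 0 peaks over 1360. In these lists the peak in M013 missed the element. The piRNA cluster gene flam on X held 2 regions of any kind, and both lay over elements: M397 over INE-1 and Quasimodo (4 and 4 anti-FLAG, 2 and 2 anti-HMR lists) and M398 over jockey2 (0 anti-FLAG, 3 and 2 anti-HMR lists). None of the 410 lay within 1 kb of the 6 genes of the HMR complex (Hmr, Lhr, Nlp, Nph, Boh1 and Boh2).

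Short sequence motifs were searched on both strands in the central 200 bp of every region. The Su(Hw) core TTGCATA was found in 7.56% of the 410 regions and in 6.33% of all regions. The BEAF-32 motif CGATA was found in 33.9% against 33.2%, and the DREF motif TATCGATA, which contains CGATA, in 5.61% against 5.73%. GAGAGAG was found in 3.17% against 3.37%, and the M1BP motif GGTCACACT in 1.22% against 3.90%. Among the 50 regions called in at least 10 lists, CGATA was found in 40.0%, against 49.9% of all such regions. A match is letters in a window and not a bound site. Median GC content was 38.5% against 40.0%.

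List length moves every count of regions, so the percentage of the other regions called by a library was subtracted from the percentage of the 410 regions that it called. This gap was -0.00482, 1.31, 0.860, 0.856 and -2.81 percentage points in anti-FLAG HMRwt-tg libraries 1 to 5 and -8.40, -4.72, -5.67, -9.92 and -2.07 in HMRdC-tg. HMRwt-tg library 5 lay among the HMRdC-tg values. The means were 0.0407 ± 1.67 and -6.16 ± 3.09 (SD, n = 5 each), a difference of -6.20 (exact two-sided permutation test, p = 0.0159), and with anti-HMR the exact test gave p = 0.886. The order of lines in a list was used as a rank, with 0 at the top, although the sources used here do not say how lines were ordered, so that a rank cannot be read as strength. Peaks over elements stood lower in the list than the others by 9.51 percentile points in anti-FLAG HMRwt-tg and by 6.37 in HMRdC-tg, which did not separate the constructs (exact permutation test, p = 0.595, n = 5 each).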

How the data were processed

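The sources were 18 deposited peak lists from SL2 cells, which hold the chromosome, start and end of each peak and no score. According to the study's methods and the submitters' processing notes, the authors mapped single-end reads of 50 bp to dm6 with Bowtie2 2.2.9, filtered for a mapping quality of 2 with SAMtools 1.3.1, and ran HOMER 4.9 on each library to find peaks (factor style, size 200, -F 2). The deposited values are positions (other than counts or signal), so read depth is unknown, and Wilson intervals (95%) cover counting error only. The 10 inputs were not used here.

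Peaks were joined where they shared at least 1 bp, and elements came from Ensembl release 115. Element classes were assigned by family name. Territory borders were read from a published HP1a plot and are approximate. A region counted as called by a list with a peak in it, whether or not that peak touched the element. Line order in a list was used as a rank, since no list was sorted by position, but what sets that order is not given in the sources used here, and the same holds for the first 50% of lines and for lists cut short. Constructs were compared by exact two-sided permutation tests over libraries, antibodies by sign flips over chromatins paired by the input named in the labels, and single regions by a 2-sided Fisher exact test, adjusted over all 12046 regions (Benjamini-Hochberg). The regions, families and lists were chosen with earlier results of these data known, and the antibody comparison by family and the antibody call rules were added after the lists were seen.

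Regions were named by rule: up to 5 per direction by the difference in anti-FLAG libraries called, the 5 called in the most lists, the top of each chromosome and of each family with at least 10 regions, every region over gypsy or a telomeric element, and those within 1 kb of a gene of the HMR complex. Others are said to be named after their values were seen, or stand in the text as members of a set or as sequences shown. Alternatives changed the overlap, the elements, the denominator, list length, the number of lists required, borders, libraries, test statistic, pairing and merging. Scripts were tested on simulated data. Python 3.11.15, numpy 2.4.6, pandas 2.3.3, scipy 1.17.1 and matplotlib 3.10.9 were used.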

Additional observations from a re-analysis of the deposited data

Results flagged for a closer look

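The share over elements with anti-FLAG minus that with anti-HMR in the same chromatin differed between the constructs, by -0.883 percentage points in HMRdC-tg relative to HMRwt-tg (exact two-sided permutation test of 4 against 4 chromatins, p = 0.0286).

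In 4 of 72 groups of libraries screened, 1 library stood apart from the others, and chance gives about 1 in 20 such groups. Anti-FLAG HMRdC-tg library 5, prepared with the NEBNext kit, had 0.640% of its list over LTR elements and the next library 0.475%. Anti-HMR HMRwt-tg library 4 had 0.134% over TIR elements and the next 0.409%. Anti-FLAG HMRwt-tg library 2, the list of 465 peaks, had 0.430% over gypsy12 (the next 0.181%), which is 2 peaks, and 0.215% over gypsy8 (the next 0.0904%), which is 1 peak.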

How the results depend on the processing

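Over 31 results and 34 alternative settings, 599 of 725 values kept their direction and side of the threshold. The anti-FLAG share over elements did so in 23 of 23 (p from 0.00794 to 0.0476, exact permutation tests) and the anti-HMR share in 20 of 20 (p from 0.0571 to 0.686). With peak midpoints inside an element, pericentromeric peaks over elements differed by -0.536 with anti-FLAG, arm peaks by 0.0206 and INE-1 by -0.000226 with anti-HMR, the anti-FLAG gap was -5.41, 244 regions remained, and 8 (anti-FLAG) and 1 (anti-HMR) were called in HMRwt-tg only. At 100 bp in elements these were 0.00199 (arms), -0.000302 (INE-1), 254, 13 and 1. Elements of at least 200 bp, all but INE-1, merged regions, the first 50% of lists, and regions in at least 3 and 5 lists gave antibody differences over 8 chromatins of -0.447, -0.393, -0.894, -0.876, -0.363 and -0.341, which then passed the test, and over HMRwt-tg chromatins of -0.0566, -0.0490, -0.426, -0.795, -0.0448 and -0.134, with -0.146 for lists cut to the shortest. The difference between constructs was -0.935, -0.161, -0.944 and -0.416 (merged, first 50%, cut lists, 5 lists), no longer past the threshold. Anti-HMR TIR differences were 0.0154 (200 bp), 0.0281 (3 lists) and 0.0685 (5 lists), and INE-1 differences -0.113 and -0.115 (3 and 5 lists). Line percentile differences were -2.15, -3.61 and -2.88 with anti-HMR (merged, first 50%, cut lists) and 0.643 with anti-FLAG (cut lists). In the first 50% of lists, arm peaks with anti-HMR differed by 0.0189, the anti-FLAG gap was -4.89, 169 regions remained, and 6 (anti-FLAG) and 5 (anti-HMR) were called in HMRwt-tg only. Cut lists left 100 regions and 6 (anti-FLAG). Requiring 3 or 5 lists left 138 and 104, with 1 (anti-HMR) at 5. Arm peaks with anti-FLAG differed by -0.216 (merged) and -0.506 (borders 1 Mb toward the centromere). Among pericentromeric peaks the anti-FLAG difference was -1.50 (borders 1 Mb away) and -1.46 (without NEBNext), and pericentromeric peaks over elements then differed by -0.829. Leaving out 1 library gave ranges of -0.509 to -0.281 (8 chromatins), -0.0470 to 0.0843 (HMRwt-tg), -1.03 to -0.719 (between constructs), -0.773 to -0.614 (pericentromeric, anti-FLAG), -0.952 to 2.87 (among pericentromeric, anti-FLAG), -0.170 to 0.0470 (arms, anti-HMR), -0.0915 to 0.00966 (TIR, anti-HMR), -0.0165 to 0.143 (INE-1, anti-HMR), -6.65 to 1.07 (gap, anti-HMR), -3.15 to 5.13 (line percentile, anti-HMR), 259 to 410 regions, and 20 to 35 (anti-FLAG) and 3 to 20 (anti-HMR) regions in HMRwt-tg only. The cause of these changes was not tested.

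The antibodies were paired by chromatin. With no replicate block, the HMRdC-tg difference of -0.856 had p = 0.0286 (exact permutation test), against 0.125 paired. No paired analysis was possible between constructs because the labels give them no shared replicate numbers. Peak lists hold positions only, so strength, depth and copies of elements too alike to be mapped were outside what could be measured, and the families with at least 10 regions other than INE-1 had 0 to 19 peaks a list.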
